A study of Mus musculus with 6 samples.

Results

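The carbonic anhydrase gene cluster of mouse chromosome 3 holds the genes Car13, Car1, Car3 and Car2, which encode cytosolic members of 1 enzyme family. Its 4 genes were taken from the 45706 genes of the count table by family and position. The cluster was selected on measured values, because Car1 had been seen to differ between the genotypes in these same libraries, and the question was whether its neighbours followed it. The values of the 4 genes are therefore given as a description, with no p-value, and where they stood against the threshold of the fit over all genes is stated without being used as evidence.

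RNA was sequenced from LSK cells, the Lin- Sca-1+ c-Kit+ compartment of bone marrow that holds hematopoietic stem and progenitor cells, with 1 library for each of 6 male mice (C57BL/6 in the labels, C57BL/6J in the methods). Ctrl and cKO mice were littermates, but which mice shared a litter is not given in the sources used here. The 3 control mice (Ctrl) carried Setd1b FD/+; RC/+ and were thus heterozygous for the conditional allele, and the 3 conditional knockout mice (cKO) carried FD/FD; RC/+. Both groups had the Rosa26-Cre-ERT2 allele (RC/+), a near-ubiquitous Cre, so that recombination was not limited to blood cells. Both groups also received tamoxifen, at 4.5 mg a day by gavage on 4 days and, following a pause of 3 days, on 2 further days. The labels, which were followed here, and the methods differ in the number of doses. Marrow was taken 3 days later, at an age of 16 weeks, or 17 weeks for cKO replicate 3. Total counts lay between 13003573 and 21277519 in Ctrl and between 14260925 and 15265730 in cKO.

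Setd1b, the targeted gene, had 221, 194 and 223 CPM (counts relative to the scaled total of the library) in Ctrl replicates 1 to 3 and 272, 288 and 314 CPM in cKO replicates 1 to 3. Every library labelled cKO was above every Ctrl library (log2 fold change 0.46, standard error (SE) 0.073, Benjamini-Hochberg adjusted p = 0.0015 by edgeR's quasi-likelihood method, hereafter edgeR adjusted p). The excised exon is a small part of the gene and counts were made per gene, so that this total, although it did not fall with the label, does not measure the excision. Each direction below is that of the libraries labelled cKO against Ctrl. The header of the count table carries library numbers that form 2 sets, which neither the labels nor the methods call batches. Set A holds Ctrl replicate 1 and cKO replicates 1 and 2, and set B the other libraries, so that differences could also be taken within a set.

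The defining markers of the labelled compartment were present. By mean CPM, which is not scaled for gene length, Kit was the highest of 12 LSK markers in both groups. Summed over the 12, the libraries had 2077, 1966 and 1863 CPM in Ctrl and 1958, 2051 and 1936 CPM in the libraries labelled cKO. The sums of the groups overlapped. Procr (log2 fold change 1.43, edgeR adjusted p = 3.6e-04) and Mecom (0.45, edgeR adjusted p = 0.0032) were among the markers higher in the libraries labelled cKO. Slamf1 (-0.01), Meis1 (0.02), Hlf (0.07), Flt3 (-0.31) and Cd48 (-0.49) were not past the threshold, with edgeR adjusted p-values of 0.074 for Cd48 and above that for the others.

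Carbonic anhydrases are zinc enzymes that convert carbon dioxide and water into bicarbonate and a proton, and the reverse. In red cells this reaction lets carbon dioxide travel as bicarbonate, and carbonic anhydrases I and II, the products of Car1 and Car2, are abundant cytosolic proteins there. Car2 is also used by cells that secrete acid or base, such as osteoclasts, Car3 is best known from muscle, fat and liver, and Car13 is a cytosolic form found in several tissues.

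Along chromosome 3 (GRCm38) Car13 lies first, on the plus strand at chr3:14641727-14663002. Car1 follows on the minus strand at chr3:14766216-14808368, then Car3 at chr3:14863512-14872523 and Car2 at chr3:14886273-14900770, both on the plus strand. The cluster spans 259 kb, with gaps of 103 kb between Car13 and Car1, 55.1 kb between Car1 and Car3 and 13.7 kb between Car3 and Car2. Car1 is thus the single gene of the 4 that is read in the opposite direction.

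Car1 was nearly lost from the libraries labelled cKO. It had 73.9, 47.3 and 53.2 CPM in Ctrl replicates 1 to 3 and 0.804, 1.46 and 0.982 CPM in cKO replicates 1 to 3. The 3 Ctrl libraries were all far above the 3 labelled cKO, with Ctrl replicate 1 the highest. The counts behind these values were 966, 992 and 832 in Ctrl and 12, 23 and 14 in the libraries labelled cKO. The fitted log2 fold change was -5.72 (SE 0.22, 95% confidence interval -6.20 to -5.25), a level 52.8-fold lower, and stood at rank 4 of 15184 genes ordered from the largest fall. Within the sets of library numbers the difference in log2 CPM was -5.93 in set A and -5.50 in set B. In RNA from sorted bulk cells, fewer cells that express a gene and less RNA in each cell cannot be told apart.

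Car2, the other red cell enzyme, stayed abundant. It had 227, 212 and 249 CPM in Ctrl and 172, 202 and 189 CPM in the libraries labelled cKO. Its lowest Ctrl library was above its highest library labelled cKO, although the distance between them was small next to the spread within either group. The log2 fold change was -0.29 (SE 0.076, interval -0.45 to -0.13), which is 1.22-fold lower, and it was -0.29 in set A and -0.28 in set B. Car2 was past the adjusted threshold of 0.05 in the fit of all 6 libraries. It was not past it without Ctrl replicate 1, Ctrl replicate 3, cKO replicate 1 or cKO replicate 3, where the log2 fold change lay between -0.30 and -0.23.

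Car13, at the other end of the cluster, had 11.9, 11.3 and 10.4 CPM in Ctrl and 10.3, 8.32 and 6.87 CPM in the libraries labelled cKO. The groups did not overlap, but Ctrl replicate 3 and cKO replicate 1 lay next to each other. The log2 fold change was -0.40 (SE 0.17, interval -0.77 to -0.03), with -0.37 in set A and -0.65 in set B. Car13 was not past the threshold.

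Car3, the gene between Car1 and Car2, was the least abundant in Ctrl. It had 2.37, 3.43 and 5.05 CPM in Ctrl and 1.94, 2.86 and 3.30 CPM in the libraries labelled cKO. The groups overlapped, and the 3 Ctrl libraries differed more among themselves than the group means did. The log2 fold change was -0.43 (SE 0.32, interval -1.12 to 0.26), with -0.01 in set A and -0.33 in set B. Car3 was not past the threshold.

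All 4 genes passed the filter on low counts. Past the threshold were 2 of the 4, Car1 and Car2, both lower, where 7.67% of the 15184 genes tested were past it in either direction, 3.79% lower and 3.88% higher. No overlap between the groups was seen for 3 of the 4, against 27.3% of the genes tested. Since the same contrast entered the choice of the cluster, nothing is read from these counts. The difference between the fold changes of 2 members was not tested.

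**Figure D1:**
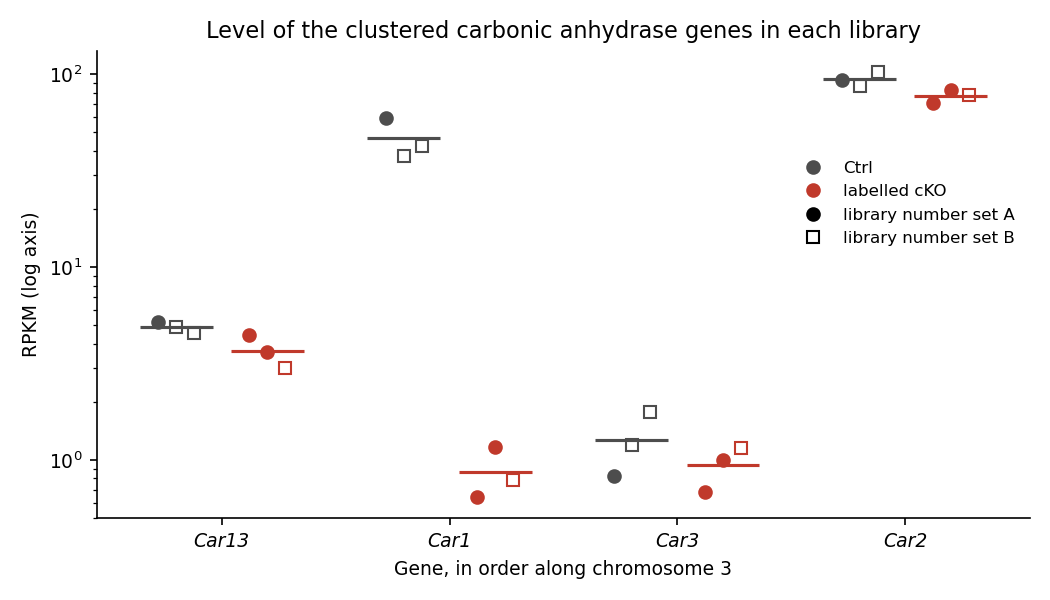
Levels of Car13, Car1, Car3 and Car2 in RPKM on a log axis, with 1 point per library, bars at the group means, grey for Ctrl, red for the libraries labelled cKO, and filled circles or open squares for the library number sets A and B. Car1 lay between 37.9 and 59.2 RPKM in Ctrl and between 0.644 and 1.17 RPKM in the libraries labelled cKO, whereas the groups of Car2 were close and those of Car3 overlapped.

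Levels of different genes were compared as RPKM, that is, CPM per kb of exon. In Ctrl, Car2 had 94.6 ± 7.71 RPKM (SD, n = 3), Car1 46.6 ± 11.2, Car13 4.87 ± 0.328 and Car3 1.26 ± 0.472. These levels followed in this order in each Ctrl library, with no overlap between neighbours. In the libraries labelled cKO, Car2 was again first with 77.3 ± 6.19 RPKM, and Car13 was second with 3.69 ± 0.737. Car3 (0.942 ± 0.241 RPKM) and Car1 (0.867 ± 0.272 RPKM) came last and did not differ beyond their spread. Car1 thus moved from the level of an abundant transcript, rank 1182 of the 15184 tested genes by mean RPKM in Ctrl, to rank 13211. Car2 moved from rank 503 to rank 582 on the same scale.

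The make-up of the cluster changed accordingly. The RPKM of the 4 genes together was 147 ± 14.2 in Ctrl, compared with 82.8 ± 6.18 in the libraries labelled cKO. Car1 made up 37.3%, 28.8% and 28.1% of this sum in Ctrl and 0.840%, 1.32% and 0.950% in the libraries labelled cKO. Car2 made up 58.9%, 66.5% and 67.7% in Ctrl and 92.5%, 93.5% and 94.0% in the libraries labelled cKO. Most of the RPKM missing from the cluster was therefore that of Car1, and nearly all that remained was Car2. The ratio of the RPKM of Car2 to that of Car1 was 1.58, 2.31 and 2.41 in Ctrl and 110.0, 71.1 and 99.0 in the libraries labelled cKO. The shares of Car13 (3.33 ± 0.370% and 4.50 ± 1.16%) and Car3 (0.865 ± 0.323% and 1.13 ± 0.253%) were small in both groups, and as shares of a sum that lost Car1 they do not give the direction of either gene.

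Genes of 1 family can share reads, so the coding sequences of the 4 genes were compared in windows of 75 bases, the length of the reads. No window of any member was identical to a window of another. The closest pair was Car3 and Car2 with 12 mismatches, and the window of Car1 closest to another member differed from Car3 at 15 of its 75 bases. This window is shown with its counterparts because it is where reads of Car1 come nearest to those of a neighbour. It covers bases 300 to 374 of the coding sequence of Car1 (chr3:14770884-14776272, minus strand) and crosses an exon junction, as do those of Car2 (chr3:14895086-14895554, plus strand), Car3 (chr3:14866867-14868368, plus strand) and Car13 (chr3:14650723-14654903, plus strand). Sequences are from the GENCODE annotation of GRCm38, and capitals mark bases that differ from Car1.
Car1: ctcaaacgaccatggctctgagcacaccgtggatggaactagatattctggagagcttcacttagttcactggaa
Car2: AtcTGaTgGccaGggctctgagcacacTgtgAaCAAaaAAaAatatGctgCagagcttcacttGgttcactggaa
Car3: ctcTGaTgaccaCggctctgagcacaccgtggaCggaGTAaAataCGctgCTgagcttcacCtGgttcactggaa
Car13: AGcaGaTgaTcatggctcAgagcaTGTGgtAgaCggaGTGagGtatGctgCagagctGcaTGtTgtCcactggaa
This window has 17 mismatches in Car2, 15 in Car3 and 23 in Car13, and the window of Car1 closest to Car13, at bases 524 to 598, has 16. Reads without many errors are thus separable between the coding sequences of Car1 and its neighbours. Only uniquely aligned reads had been counted.

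Most genes around the cluster had no count in these libraries. Only uniquely aligned reads were counted, so a count of 0 does not show that a gene was silent. Within 1 Mb on each side of the cluster the table lists 30 other genes, of which 9 had a count in any library and 4 passed the filter. The 3 of these that lie outside Car1 are placed before Car13. Lrrcc1, which encodes a centrosomal protein, had 75.3, 77.4 and 79.0 CPM in Ctrl and 96.6, 90.7 and 81.5 CPM in the libraries labelled cKO. All 3 of the latter were higher, but the difference did not pass (log2 fold change 0.21, SE 0.076, edgeR adjusted p = 0.10). E2f5, a transcription factor of the E2F family, had 5.51, 5.29 and 5.69 CPM in Ctrl and 4.29, 6.80 and 5.75 CPM in the libraries labelled cKO (log2 fold change 0.03, SE 0.22, edgeR adjusted p = 0.95). 1810022K09Rik lay between 18.1 and 21.8 CPM over all 6 libraries (log2 fold change -0.07, SE 0.12, edgeR adjusted p = 0.79). Of these 3 genes edgeR called 0, with 1, Lrrcc1, at an unadjusted p under 0.05, and DESeq2 called 0. As edgeR called 7.67% of all genes tested, nothing is read from so small a count. The 26 genes of the window below the filter had at most 37 counts in all 6 libraries together.

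Of the 4 tested genes of the window other than the members, 1 was past the threshold, where 7.67% of all genes tested were. This was Gm16399, a processed pseudogene of 219 bases. It had 4.90, 1.91 and 2.75 CPM in Ctrl and 0.737, 0.445 and 1.12 CPM in the libraries labelled cKO. Each library labelled cKO was below each Ctrl library, and Ctrl replicate 1 stood highest, as it did for Car1. The counts were 64, 40 and 43 in Ctrl and 11, 7 and 16 in the libraries labelled cKO. These gave a log2 fold change of -2.03 (SE 0.46, edgeR adjusted p = 0.013), with -2.84 in set A and -0.95 in set B. The counts of the libraries labelled cKO alone would not have passed the filter, which favoured a fall as the direction that could be called. The call is thus not read against the share of 7.67%. The call was lost without Ctrl replicate 1 (edgeR adjusted p = 0.062) and without cKO replicate 2 (0.073), 10 alternatives gave adjusted p-values between 7.2e-05 and 0.073, and the gene was not tested where 10 counts were required in every library.

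Gm16399 lies within Car1 itself. At chr3:14802356-14802574 it falls on the same strand as Car1, inside the intron chr3:14778409-14808301 of 2 of the 3 annotated Car1 transcripts, and it overlaps no Car1 exon. The libraries had been made from total RNA, so reads of this stretch from unspliced Car1 RNA and reads of a pseudogene transcript have the same strand and position and cannot be told apart. Per 100 counts of Car1 there were 6.63, 4.03 and 5.17 counts of Gm16399 in Ctrl and 91.7, 30.4 and 114 in the libraries labelled cKO. The groups did not overlap in this ratio, with the libraries labelled cKO above Ctrl. The ratio divides by Car1, whose difference between the genotypes entered the choice of the cluster, so nothing is read from it. In the libraries labelled cKO the counts of both genes were low. The difference between the fold changes of the 2 genes was not tested.

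**Figure D2:**
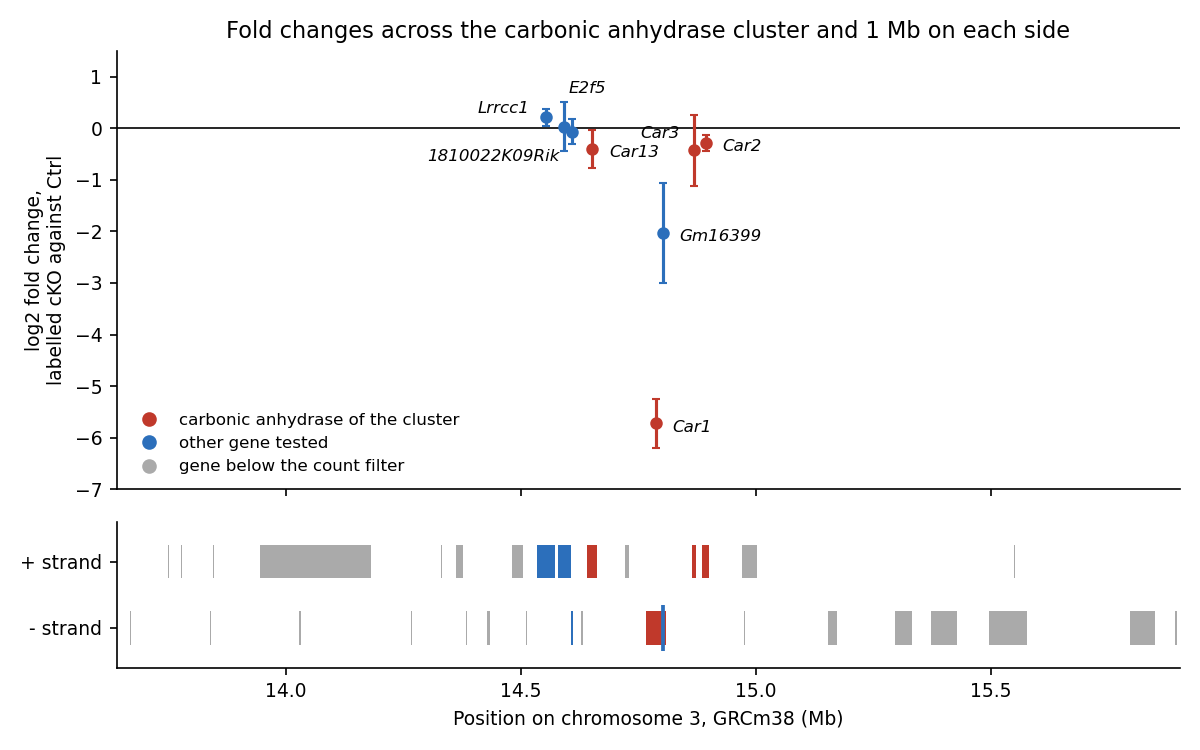
Log2 fold changes with 95% confidence intervals (upper panel) of the carbonic anhydrases of the cluster (red) and of the other tested genes (blue) against position on chromosome 3 in Mb, with all genes of the window on their strands below, those under the count filter in grey. Car1 at -5.72 and Gm16399 inside it at -2.03 stand below the other genes of the window, which lie between -0.43 and 0.21.

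A further gene that could share reads with Gm16399 is Cox6c. The 219 bases of the pseudogene match the coding sequence of Cox6c, a subunit of cytochrome c oxidase, with 12 mismatches (94.5% identity), and the pair is shown because reads of 75 bases from either gene differ at few places. Gm16399 is written on the minus strand of chromosome 3, and the matching bases 10 to 228 of the coding sequence of Cox6c lie in 2 exons at chr15:35935303-35937262 on the minus strand. Capitals mark the bases that differ.
Gm16399: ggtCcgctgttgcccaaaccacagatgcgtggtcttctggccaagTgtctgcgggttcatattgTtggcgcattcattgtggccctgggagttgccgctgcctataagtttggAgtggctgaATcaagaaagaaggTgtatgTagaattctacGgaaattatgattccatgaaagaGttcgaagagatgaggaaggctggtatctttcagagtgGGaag
Cox6c: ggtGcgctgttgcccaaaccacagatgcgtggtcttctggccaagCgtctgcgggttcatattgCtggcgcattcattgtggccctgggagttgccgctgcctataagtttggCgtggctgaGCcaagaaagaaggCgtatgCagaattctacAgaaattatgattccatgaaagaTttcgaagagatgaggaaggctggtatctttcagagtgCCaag
Of the 145 windows of 75 bases in this stretch 0 were identical between the genes, and the number of mismatches ran from 2 to 7. A read with 2 sequencing errors could thus be placed in the other gene. Cox6c itself had 145, 151 and 164 CPM in Ctrl and 154, 136 and 129 CPM in the libraries labelled cKO, which overlapped (log2 fold change -0.14, SE 0.076, edgeR adjusted p = 0.31). The count of Gm16399 is therefore uncertain, and how much of it came from Cox6c was not tested.

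Carbonic anhydrases outside the cluster did not show a change past the threshold. Of 12 such genes 3 passed the filter. Car5b, a mitochondrial form, had 0.918, 1.62 and 1.15 CPM in Ctrl and 1.94, 2.48 and 2.52 CPM in the libraries labelled cKO. The groups did not overlap, and the libraries labelled cKO were the higher ones (log2 fold change 0.88, SE 0.36, edgeR adjusted p = 0.16). Car9, a membrane form, and Car12, another, overlapped between the groups, with log2 fold changes of 0.11 (SE 0.23, edgeR adjusted p = 0.82) and -0.17 (SE 0.23, edgeR adjusted p = 0.71). EdgeR and DESeq2 each called 0 of the 3, where edgeR called 7.67% of all genes tested, and nothing is read from so small a count. At an unadjusted edgeR p under 0.05 was 1 of the 3, Car5b. The other 9 were below the filter, 7 of them with at most 10 counts over all 6 libraries, and Car4 and Car14 had none.

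Carbonic anhydrases work together with transporters of bicarbonate, protons and gases. Of 35 genes listed for this transport 19 passed the filter, and 5 of them were past the threshold, all lower (median log2 fold change -0.05, against 0.00 over all genes tested, of which 3.79% were lower past the threshold). The 5 were Rhag, Rhd, Hvcn1, Aqp1 and Slc16a1. In the libraries labelled cKO, Rhag had 5, 3 and 10 counts and Rhd 3, 9 and 8. These 2 thus passed the filter on their Ctrl counts, which left a fall as the direction that could be called. With at least 10 counts required in every library, 3 genes of the list were past the threshold, all lower. Aqp1, a water channel of the red cell membrane, had 44.1 ± 2.65 CPM (SD, n = 3) in Ctrl and 17.8 ± 3.43 CPM in the libraries labelled cKO. The groups did not overlap (log2 fold change -1.30, SE 0.13, edgeR adjusted p = 1.6e-05). Rhag, the Rh-associated glycoprotein that conducts ammonia in red cells, had a log2 fold change of -2.94 (SE 0.51, edgeR adjusted p = 0.0023), and its partner Rhd one of -1.96 (SE 0.48, edgeR adjusted p = 0.021). Rhag lay at -3.56 without cKO replicate 3 and at -2.51 without Ctrl replicate 1, with differences of -3.71 in set A and -1.57 in set B. The call of Rhd was lost in 5 of 10 alternatives, each with 1 mouse left out, where the adjusted p reached 0.096. Hvcn1, a proton channel, had a log2 fold change of -1.96 (SE 0.24, edgeR adjusted p = 1.6e-04) and Slc16a1, a transporter of lactate and protons, one of -0.44 (SE 0.080, edgeR adjusted p = 0.0032). Slc4a8, a bicarbonate transporter, had -0.63 (SE 0.22, edgeR adjusted p = 0.095) and passed with no filter on low counts (adjusted p = 0.04, from 0.04 to 0.31 over the alternatives), and the red cell exchanger Slc4a1 had 0 CPM in every library but cKO replicate 2, with 0.0635 CPM.

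Among 18 regulators of erythroid development, all of which passed the filter, 2 were past the threshold, both lower, where 7.67% of all genes tested were past it and 3.79% were past it and lower (median log2 fold change -0.09, against 0.00 over all genes tested). Klf1, a transcription factor of red cell genes, had 35.1, 25.4 and 47.1 CPM in Ctrl and 6.37, 10.3 and 8.77 CPM in the libraries labelled cKO. It was lower in each of the latter (log2 fold change -2.07, SE 0.21, edgeR adjusted p = 2.1e-05). Gata1, the erythroid and megakaryocytic GATA factor, had 35.4, 33.9 and 44.9 CPM in Ctrl and 23.3, 23.1 and 26.7 CPM in the libraries labelled cKO (log2 fold change -0.64, SE 0.12, edgeR adjusted p = 0.0035). Both genes had been named by the study from these libraries and are no independent evidence of the direction. Gfi1b had a log2 fold change of -0.37 (SE 0.14, edgeR adjusted p = 0.14) and Epor, the erythropoietin receptor, one of -0.70 (SE 0.29, edgeR adjusted p = 0.17), each with overlapping groups. Gfi1b passed with no filter on low counts (adjusted p = 0.014) and without cKO replicate 3 (0.043), between 0.014 and 0.44 in all alternatives. Epor passed without Ctrl replicate 1 (adjusted p = 0.044), between 0.044 and 0.62 in all alternatives.

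Of 33 genes of red cell maturation 27 passed the filter, with 12 lower and 2 higher past the threshold, against 3.79% lower and 3.88% higher of all genes tested (median log2 fold change -0.43, against 0.00). The list shares 4 genes with the transport list, among them Rhag, Rhd and Aqp1, and the study had picked some of its genes from these libraries. The list was chosen with earlier results of these data known. Ermap, an erythroblast membrane protein, had 37.5, 25.1 and 33.3 CPM in Ctrl and 2.95, 6.29 and 2.45 CPM in the libraries labelled cKO. With a log2 fold change of -3.01 (SE 0.25, edgeR adjusted p = 3.0e-06) it was nearest to Car1 in size among the tested genes of the lists of carbonic anhydrases, transport, erythroid regulators and red cell maturation. The membrane skeleton genes Add2 (-2.49, SE 0.41, edgeR adjusted p = 0.0017) and Ank1 (-2.02, SE 0.20, edgeR adjusted p = 2.2e-05) were lower, as were the blood group gene Kel (-1.34, SE 0.25, edgeR adjusted p = 0.0044) and Cpox of heme synthesis (-0.94, SE 0.091, edgeR adjusted p = 1.6e-05). Add2 lay at -3.51 without cKO replicate 2 and at -2.16 without cKO replicate 1. The 2 higher genes were Epb42 (log2 fold change 2.25, SE 0.58, edgeR adjusted p = 0.027) and Gypc (0.34, SE 0.080, edgeR adjusted p = 0.017). Epb42 had 2, 4 and 5 counts in Ctrl. It thus passed the filter on its counts in the libraries labelled cKO, which left a rise as the direction that could be called. The calls of Epb42, Rhag and Rhd are not read against the shares of all genes tested. Neither Epb42 nor Gypc was past the threshold without Ctrl replicate 1 or without cKO replicate 1. With any other mouse left out, and with the DESeq2 test, 1 gene of the list was higher past it. Without cKO replicate 1, 8 genes of the list were past the threshold, all lower. With at least 10 counts required in every library, which removes Rhag and Rhd, 10 were lower and 1 higher past it.

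**Figure D3:**
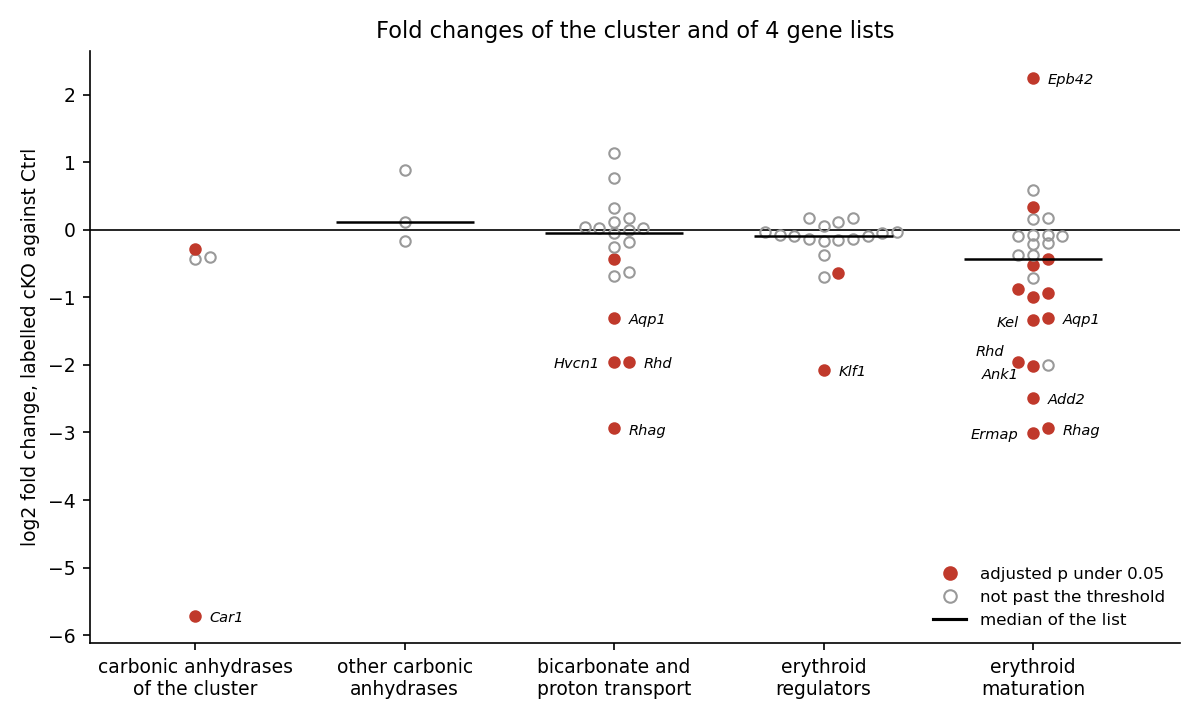
Log2 fold changes of the libraries labelled cKO against Ctrl for the carbonic anhydrases of the cluster and for the tested genes of 4 lists, with 1 point per gene, filled red where the adjusted p was under 0.05, and a line at the median of each list. Car1 at -5.72 lies below every gene of the lists, of which Ermap at -3.01 is the lowest.

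Markers of cells other than LSK cells were read beside Car1. Of 8 markers of mature red cells 7 were matched in the table, and they summed to 4.67, 2.81 and 4.73 CPM in Ctrl and 4.02, 4.13 and 6.03 CPM in the libraries labelled cKO. These sums were low and overlapped, with Hbb-bt the most abundant (2.20 CPM in Ctrl and 3.31 CPM in the libraries labelled cKO) and with edgeR adjusted p-values of 0.32 for Hbb-bt and 0.80 for Hbb-bs, the 2 that passed the filter. The summed level of markers of basophils, mast cells and eosinophils was lower beside that of Car1. It was 71.4, 62.1 and 62.3 CPM in Ctrl and 26.5, 19.1 and 22.2 CPM in the libraries labelled cKO, and 4 of the 6 that passed the filter were lower past the threshold, namely Prg2, Cpa3, Ms4a2 and Prss34, where 3.79% of all genes tested were. The other 2 were not past it, namely Mcpt8 (log2 fold change 0.15, edgeR adjusted p = 0.77) and Fcer1a (-1.44, edgeR adjusted p = 0.14). Cpa3 was the most abundant, with 26.2 CPM in Ctrl and 13.7 CPM in the libraries labelled cKO (log2 fold change -0.93, edgeR adjusted p = 0.0028). Prg2 (-3.73, edgeR adjusted p = 0.0012) and Ms4a2 (-3.54, edgeR adjusted p = 1.5e-08) were lower by more, and none of the 7 listed was at 0 in all libraries. In the libraries labelled cKO, Prss34 had no count and Prg2 had 9, 4 and 0 counts. These 2 thus passed the filter on their Ctrl counts, which left a fall as the direction that could be called. Their calls are not read against the share of 3.79%. The part of basophils, mast cells and eosinophils in the result for Car1 was not tested. Megakaryocyte markers summed to 148, 173 and 183 CPM in Ctrl and 136, 129 and 166 CPM in the libraries labelled cKO. These sums overlapped. Itga2b had the highest mean CPM in both groups. By mean RPKM Pf4 was above Itga2b, with 35.9 against 15.0 in Ctrl and 14.8 against 13.5 in the libraries labelled cKO. Of 7 that passed the filter 1, Pf4, was lower past the threshold, against 3.79% of all genes tested. Markers of lineage-positive leukocytes summed to 41.9, 41.9 and 48.0 CPM in Ctrl and 65.5, 54.6 and 49.9 CPM in the libraries labelled cKO. The groups did not overlap, with the libraries labelled cKO above Ctrl, and the part of these cells in the results was not tested. Most of this was Itgam, which was higher past the threshold, whereas S100a8 and S100a9 were lower, and Cd3e, Ms4a1 and Ly6g were at or near 0. S100a8 (9, 11 and 3 counts in the libraries labelled cKO) and S100a9 (6, 6 and 2) also passed the filter on their Ctrl counts.

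Tissues known for Car2 and Car3 left little trace. Osteoclast markers summed to between 1.99 and 3.24 CPM in all 6 libraries, most of it Acp5, with Calcr at 0. Muscle markers summed to between 0.561 and 1.22 CPM with Ckm in front and with Myh4, Myh7 and Mb at 0. Adipocyte markers summed to between 0.210 and 1.02 CPM, with Adipoq in front and with Lep and Cidec at 0. Hepatocyte markers summed to at most 0.448 CPM, with Apoa1 in front and with Alb, Ttr and Serpina1a at 0.

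Genes with the pattern most like that of each member were taken as those with the smallest root-mean-square difference in log2 CPM over the 6 libraries, each gene centred on its mean. For Car1 the closest were Dntt (0.63), Gzmb (0.87) and Prss34 (0.90). Dntt, the terminal transferase of early lymphoid cells, had 271, 549 and 219 CPM in Ctrl and 3.62, 5.97 and 8.42 CPM in the libraries labelled cKO. Gzmb, which encodes granzyme B, had 10.3, 3.91 and 4.67 CPM in Ctrl and 0.201, 0.381 and 0.210 CPM in the libraries labelled cKO. The latter were 3, 6 and 3 counts, so that Gzmb passed the filter on its Ctrl counts. Its difference in log2 CPM also depends on the prior count of 2. Prss34, a protease of basophils and mast cells, had 37, 21 and 32 counts in Ctrl and 0 in all libraries labelled cKO, so that its difference in log2 CPM depends on the prior count of 2. The measure chose these genes for a gap between the groups like that of Car1, and Dntt had been named by the study from these libraries. This measure grows with the size of a change, so that its values are not compared between members. For Car2 the closest genes were Bysl (0.03), Anp32-ps (0.04) and Nomo1 (0.05), for Car13 Gm15484 (0.06), Pdcd5 (0.07) and Gm1966 (0.07), and for Car3 Gm5616 (0.11), Ankrd29 (0.13) and Gm6580 (0.14).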

How the data were processed

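The authors aligned 75-base reads of stranded total RNA libraries to GRCm38 (GSNAP) and deposited counts of uniquely aligned reads per gene (featureCounts 1.5.0, on the strand of the gene, mapping quality of at least 1), without normalization or pooling, together with the exon length of each gene. Columns were matched to mice by name. Symbols came from GENCODE M21 (98.8% of genes).

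From these counts edgeR 4.0.16 in R 4.3.3 gave TMM factors, CPM and, for 15184 genes kept by filterByExpr, a quasi-likelihood test of genotype on all 6 libraries, adjusted by Benjamini-Hochberg with a threshold of 0.05. RPKM used the deposited exon lengths. The SE was the log2 fold change divided by the root of F, and intervals were at 95%. The procedure was also run on simulated data, the outcome of which is not given here. An exact permutation test of 3 against 3 mice gives no two-sided p below 0.1 and was not used.

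The genes of the cluster and the gene lists were chosen with earlier results of these data known. Named were Setd1b, the members, the tested genes of the window and of the other carbonic anhydrases, the 8 genes of each other list with the smallest adjusted p (not all printed), the 3 genes nearest in pattern to each member and the gene of each marker list with the highest mean CPM. Other named genes, Cox6c included, were chosen after their values were seen. Alternatives were DESeq2 1.42.0 as size factors or as test, other count filters, the library number set as covariate, a narrower window and leaving out each mouse. Of the 4 members 0 matched the RefSeq promoter table used here, and promoters and proteins were not analysed here. Some items are not reported here.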

Additional observations from a re-analysis of the deposited data

How the results depend on the processing

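No paired analysis was possible because the labels give no replicate numbers and do not say which mice shared a litter, so that the replicate numbers used here only name mice. Under 11 alternatives each member kept its direction, with log2 fold changes from -6.01 to -5.52 for Car1, -0.35 to -0.23 for Car2, -0.56 to -0.27 for Car13 and -0.64 to -0.13 for Car3. With each mouse left out, 604 to 1125 genes were past the threshold in place of 1164, with 604 without cKO replicate 2, 665 without Ctrl replicate 3 and 739 without cKO replicate 3, where fewer libraries entered the fit. Other settings gave 1089 to 1682. With 1 mouse left out, the genes past the threshold were 0 to 1 in the window around the cluster, 0 of the other carbonic anhydrases, 4 to 5 of the transport list, 2 to 3 erythroid regulators and 8 to 13 genes of red cell maturation. With at least 10 counts in every library, which removes genes of low count, they were 0 in the window and 3 of the transport list. With 500 kb on each side the window held 1. Neither set of library numbers holds 2 mice of both groups, so its differences have no test of their own. The low counts of Car1 in the libraries labelled cKO, of Gm16399 and of Car3 limit the precision of their fold changes.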

Other observations

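Of the carbonic anhydrases below the filter, Car7 and Car8 had the most counts. Car7, a cytosolic form on chromosome 8, had 4, 15 and 13 counts in Ctrl and 3, 2 and 0 counts in the libraries labelled cKO. Every Ctrl library was above every library labelled cKO, at levels of at most 0.832 CPM. In the fit with no filter on low counts it did not pass the threshold (edgeR adjusted p = 0.13). Car8, a catalytically inactive form on chromosome 4, had 5, 5 and 4 counts in Ctrl and 10, 2 and 10 counts in the libraries labelled cKO, which overlapped (edgeR adjusted p = 0.7 without the filter). At counts this near to 0 no fold is given for either gene. At these counts neither a fall of Car7 nor a rise of Car8 could be shown.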
